A study of Bos taurus with 46 samples.

Results

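On D105 of gestation, 2 of the 9 heifers of the IVP-LOS group (604 and 664) carried a fetus heavier than 900 g, and their circulating leukocytes were compared with those of the other 7 heifers of the same group (557, 663, 616, 656, 637, 512 and 602). The rule that chose the members uses heifer number and fetal weight and no transcript, but both heifers were already known to stand apart from the other animals in these transcriptomes, so that they differ is not an independent finding. They are 2 of the 9 IVP-LOS libraries of D105 and of the 46 libraries of the series, which holds 1 library per heifer on D55 and on D105. All 9 heifers were Angus crossbred animals that received in vitro produced (IVP) embryos, with 2 transferred per recipient, and each carried an overgrown fetus as defined against the weights of control fetuses (large offspring syndrome, LOS). The 8 heifers of the AI group, which conceived by artificial insemination, served as background. The D105 libraries of both groups belong to the library set BACKUP, whereas every D55 library belongs to the set New. The RNA came from the buffy coat of tail vein blood after red cell lysis, so each library is a mixture of white cells with some platelets and remaining red cells. Fetal weights, sex and number were not analysed here, and with 2 heifers on 1 side any property these 2 animals share cannot be told apart from the size of the fetus.

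In cattle blood, lymphocytes normally outnumber neutrophils. B cells present antigen on MHC class II and make antibody, T cells and natural killer cells carry out cellular immunity, and monocytes and neutrophils are the phagocytes that adhere to vessel walls and release inflammatory mediators. The share of each class in a blood sample changes with pregnancy, stress and infection, and the genes of ribosomes, mitochondria and splicing factors are read in all of them. In a mixed sample, fewer cells of a class and less RNA per cell cannot be told apart.

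The libraries of 604 and 664 stood apart in composition before any gene was tested. Reads on NCBI genes numbered 18692653 in 604 and 19641136 in 664, against 21844558 to 24473385 in the other 7. Reads that fell on no NCBI gene made up 38% of the reads placed on or off genes in 604 and 36.07% in 664, against 24.76 to 30.33% in the other 7 and 24.61 to 30.53% in the 8 AI heifers. Both heifers were above every one of the other 7, by 9.65 percentage points on average (two-sided exact permutation test over the 36 choices of 2 heifers from 9, p = 0.0278, the smallest p this design allows). On D55 the same 2 heifers had 25.8 and 23.85%, inside the range of the other 7 (23.52 to 29.21%). Counted on Ensembl genes, the direction was opposite. The share on no gene was 24.8% in 604 and 25.65% in 664, below the 29.86 to 32.14% of the other 7 (exact permutation p = 0.0278).

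A small set of Ensembl identifiers rose on D105. Of 27607 identifiers, 12 gained at least 0.2 percentage points of the reads in the mean of 604 and 664, and they were picked after their values were seen. Together they held 20.5% of the reads in 604 and 18.3% in 664, against 3.79 to 9.44% in the other 7 and 4.14 to 10.9% in the AI heifers. The highest of the other 7 was heifer 557. ENSBTAG00000043561 alone took 6.34% in 604 and 5% in 664 against 1.24 to 3.09%, and ENSBTAG00000043560 took 2.69 and 2.32% against 0.462 to 1.18%. The tables used here do not pair these identifiers with names. With the 12 set aside, the Ensembl share on no gene was 31.2% in 604 and 31.4% in 664, at or inside the lower edge of the other 7 (31.2 to 34.5%). None of the 13 genes encoded by the mitochondrial genome had a row under its symbol in the NCBI table. Whether the reads on these identifiers are those that fell on no NCBI gene was not tested, nor was their part in the results below.

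**Figure D1:**
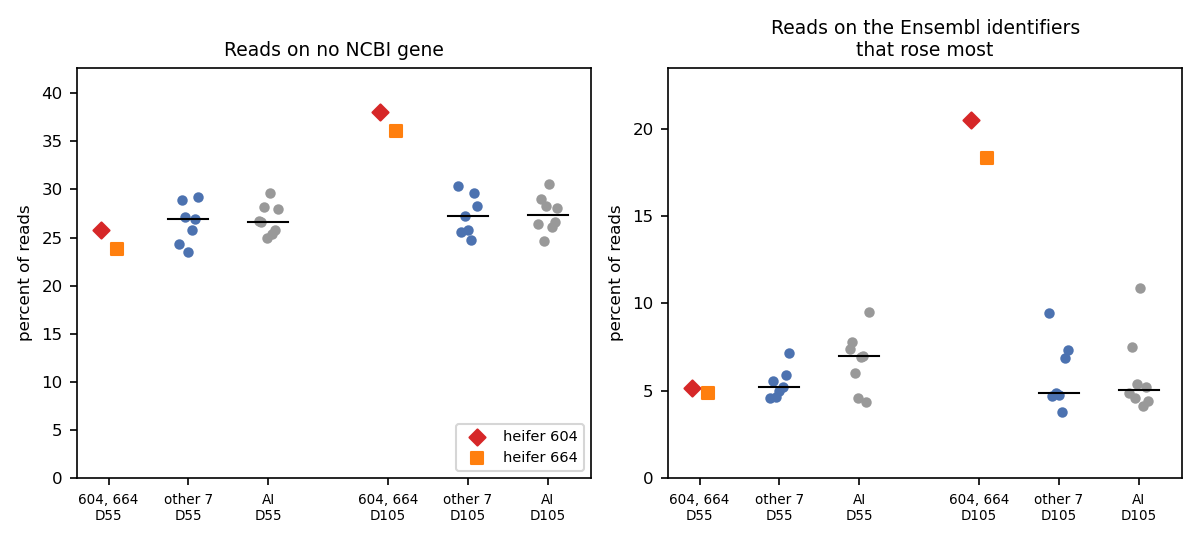
Percent of reads on no NCBI gene (left) and on the 12 Ensembl identifiers that rose most (right), for each library of D55 and D105, with 604 and 664 as coloured symbols, the other 7 IVP-LOS heifers in blue, the 8 AI heifers in grey and a black line at each median. On D55 both heifers lie among the others, and on D105 they lie above all of them in both panels.

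Among the other 7, heifer 637 carried far more neutrophil RNA than the rest, and several results are also given without it. The samples were white cells by their defining genes in every library. *PTPRC* (CD45, the pan-leukocyte phosphatase) was at 1910 and 1890 CPM (read counts put on a common scale per library with TMM factors) in 604 and 664 and at 1920 to 2370 in the other 7. *LAPTM5*, a lysosomal membrane protein of blood cells, was at 2400 and 2580 CPM against 2140 to 2660. Of the 8 leukocyte-defining genes, 1 (*CD37*) was called.

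Of 16200 genes tested with edgeR's quasi-likelihood test, 914 were higher (5.64%) and 552 lower (3.41%) in 604 and 664 at a false discovery rate (FDR, the expected share of false calls) of at most 0.05. The median log2 fold change (604 and 664 over the other 7) of all tested genes was -0.03. In 1451 of the 1466 called genes neither heifer overlapped with the other 7 on the called side. In 1371 of them neither overlapped with any of the 15 other BACKUP libraries of D105, the AI heifers included. The share of all tested genes outside those 15 libraries was not counted, so the 1371 has no background. Over all tested genes, called or not, both heifers lay above the other 7 in 16.8% and below them in 13.7%, and these 2 shares are the background for the counts of members outside the range below. When that percentage of reads off NCBI genes was added as a covariate, edgeR's quasi-likelihood test called 0 genes (1595 at an unadjusted p under 0.05), and since the 2 highest shares are those of 604 and 664, the share and the group cannot be told apart. The number also depended on single heifers, being 2318 without 557, 505 without 656, 548 without 663, 794 without 602, 878 without 512 and 914 without 616. It was 37 with heifer 604 alone against the 7 and 30 with 664 alone, 25 of the latter among the 16200 genes tested with both heifers. Of the 1466 genes only *CHMP4A* and *TNFSF10* were called in each of the latter fits.

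*CHMP4A*, a subunit of the ESCRT-III membrane scission complex, had 123 CPM in 604 and 110 in 664, against a lowest value of 35.3, a median of 44 and a highest value of 51.5 in the other 7. Its log2 fold change was 1.36 ± 0.13 (SE, FDR = 0.0123). *TNFSF10* encodes TRAIL, a ligand that triggers apoptosis and is induced by interferon. It had 50.2 and 42.3 CPM, against 117, 128 and 158, a log2 fold change of -1.56 ± 0.15 (FDR = 0.0123). The third of the smallest FDRs was that of *YPEL3*, a zinc-binding growth inhibitor, at 618 and 537 CPM against 239, 264 and 304 (log2 fold change 1.08 ± 0.12, FDR = 0.0132). In each of the 3 the 2 heifers lay well outside both the other 7 and the AI heifers.

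Gene functions and leukocyte classes were read through 42 lists, of which 40 had tested genes. For each heifer the median over a list of its log2(CPM + 1) minus the mean of the other 7 was taken. Both heifers lay above all of the other 7 in 8 lists, below all of them in 11, and in 21 lists they did not both stand outside on the same side. The 8 raised lists were B cells, MHC class II, cytosolic and mitochondrial ribosomal proteins, the nuclear-encoded respiratory chain, translation factors, the core spliceosome and the SR proteins. The 11 lowered lists were monocytes, mature neutrophils, basophils and mast cells, dendritic cells, WC1 gamma-delta T cells, adhesion molecules, cytokines and NF-kappaB, the unfolded protein response, hormone receptors, DNA methylation and the cell cycle. Mitochondrially encoded genes and nuclear-retained RNAs, the remaining lists, had no tested gene. Summed levels did not always follow the medians. Cytokines and NF-kappaB summed to 1300 and 1260 CPM, inside the 1110 to 3090 of the other 7. Hormone receptors (384 and 373 against 361 to 562) and DNA methylation (1700 and 1690 against 1580 to 1860) were also inside. In 604 alone, WC1 cells (377 against 234 to 657) and the unfolded protein response (3040 against 2880 to 4210) were inside too. The raised translation factors of 604 (25400 against 22700 to 25700) were as well. With the share of reads on no gene as a covariate, the medians of the monocyte (1.03), mature neutrophil (3.05), adhesion (0.62) and SR protein (-0.15) lists changed sign, whereas the B cell (0.5), MHC class II (0.63), respiratory chain (0.21), core spliceosome (0.08), cytosolic ribosomal (0.02), dendritic cell (-0.06) and cell cycle (-0.4) medians kept it. Of these, the last 5 moved by more than the spread between the other 7. Those of the ribosomal, core spliceosome and dendritic cell lists came close to 0.

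**Figure D2:**
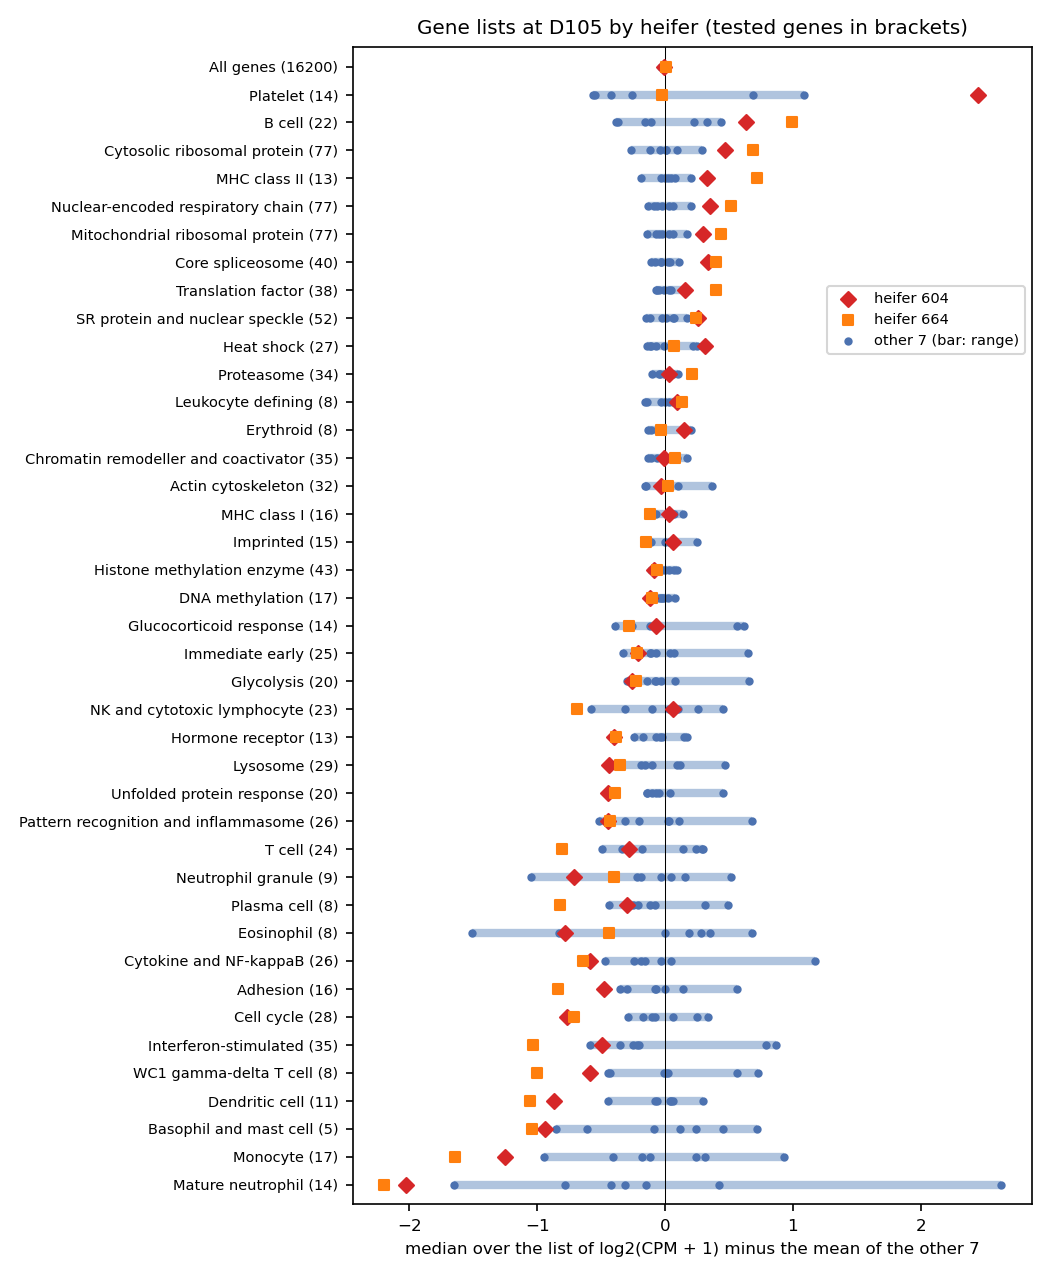
Median over each gene list of log2(CPM + 1) minus the mean of the other 7 IVP-LOS heifers, on D105, with 1 symbol per heifer, the range of the other 7 as a bar and the number of tested genes in brackets. B cell, ribosomal, respiratory chain and spliceosome lists lie to the right of the bars in both heifers, cell cycle, monocyte, neutrophil and dendritic cell lists to the left, and the platelet list is far to the right in 604 only.

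Genes of B cells were the leukocyte class that stood higher in both heifers. Of 22 B cell markers tested, 4 rose and none fell, and 15 had both heifers above the other 7. The median log2 fold change was 0.78, and it was 0.92 with 664 alone and 0.56 with 604 alone. The summed level of the list was 8250 CPM in 604 and 10400 in 664, against 3940 to 6930 in the other 7 and 3060 to 7450 in the AI heifers. On D55 the list had a median log2 fold change of 0.32. Its summed level in 664 was already above the other 7 then, at 9170 CPM against 4480 to 7810, whereas 604 had 6030.

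*PAX5*, the transcription factor that fixes B cell identity, had 577 CPM in 604 and 747 in 664, and 249, 305 and 440 (lowest, median, highest) in the other 7, a log2 fold change of 0.99 ± 0.22 (FDR = 0.0301). *TNFRSF13C*, the receptor for the survival factor BAFF, had 198 and 206 CPM against 42.7, 79.4 and 124 (1.32 ± 0.31, FDR = 0.0346). The signalling chain *CD79A* followed with 837 and 1100 CPM against 362, 516 and 725 (0.88 ± 0.23, FDR = 0.0426). None of these 3 overlapped with the other 7 or with the AI heifers. *MS4A1* (CD20) was at 1420 and 1950 CPM against 622 to 1340 and *CD79B* at 419 and 598 against 195 to 385, both chosen after their values were seen, and neither passed the test (FDR = 0.0871 and 0.0724). The AI heifers reached 451 CPM of *CD79B*, above 604.

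The genes of antibody secretion did not move with the B cell genes. Of 8 plasma cell genes, *DERL3*, which acts in the degradation of misfolded proteins of the endoplasmic reticulum, rose (190 and 320 CPM against 59.7, 84.3 and 121, log2 fold change 1.52 ± 0.24, FDR = 0.0207), and 4 had both heifers below the other 7. Among these were *JCHAIN*, the joining chain of polymeric antibody, at 191 and 231 CPM against 245, 381 and 789, and *MZB1*, a chaperone of antibody assembly, at 10.5 and 12.4 CPM against 15.8, 20.4 and 37.6. Neither passed the test (FDR = 0.0935 and 0.0855), and the median of the list was -0.6. The lowest AI value of *JCHAIN* was 219 CPM, below 664.

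Genes of antigen presentation on MHC class II, a function of B cells, monocytes and dendritic cells, were higher in part. Of 13 genes tested 4 rose, none fell and 7 had both heifers above the other 7, with a median log2 fold change of 0.66, which was 0.65 with 664 alone and 0.31 with 604 alone. The summed level was 13400 and 16200 CPM against 9980 to 11200, but the AI heifers reached 13800, above 604. *CIITA*, the master activator of the class, had 617 and 675 CPM against 314, 418 and 424 (0.66 ± 0.12, FDR = 0.0222). *BOLA-DOB*, which modulates peptide loading, had 381 and 226 CPM against 105, 134 and 212 (1.06 ± 0.27, FDR = 0.0412). *BOLA-DRB3*, the polymorphic beta chain, had 767 and 2080 CPM against 471, 632 and 703 and was at 1880 in 664 on D55, so its level in 664 was high on both days. The AI heifers reached 1460 CPM of *BOLA-DRB3*, above 604. *BOLA-DRA* (log2 fold change 0.19, FDR = 0.341) and *BOLA-DMA* (0.05, FDR = 0.807) were neither called nor outside the range in both heifers. Reads of such polymorphic genes may be split among near-identical copies. For MHC class I, 3 of 16 genes rose, all of them catalytic subunits of the immunoproteasome that trims peptides for presentation (*PSMB8*, *PSMB9* and *PSMB10*). *PSMB8* had 763 and 768 CPM against 402, 487 and 562 (0.63 ± 0.13, FDR = 0.0272). The median of that list was -0.1.

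Markers of monocytes were lower. Of 17 tested, 4 fell, none rose and 12 had both heifers below the other 7, and every one of the 17 had a log2 fold change below 0, with a median of -2.23. Without heifer 637 the median was -1.76 and 10 fell. The summed level was 1020 CPM in 604 and 887 in 664. The other 7 ranged from 1060 in 557 to 4660 in 637, and the AI heifers from 1730 to 5020. On D55 both heifers were already below the other 7, with 1560 and 1770 CPM against 1940 to 3870 (list median -0.76, no gene called). *CSF1R*, the receptor that maintains monocytes and macrophages, had 53.4 and 30.1 CPM against 76, 229 and 500 (log2 fold change -2.51 ± 0.66, FDR = 0.0462), and 112 and 130 against 152 to 497 on D55. *KLF4* had 5.64 and 8.15 CPM against 9.41, 26.6 and 49.7, and 14 and 11.5 against 21 to 50.9 on D55. The lectin *LGALS3* had 7.56 and 5.25 CPM against 13.5, 18.2 and 29.7. *CD14*, the endotoxin co-receptor, chosen after its values were seen, was at 11.1 and 13.4 CPM against 38.7 to 316, and was not called (FDR = 0.0601).

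Mature neutrophil markers had the lowest median of any list, but none of the 14 was called. Their median log2 fold change was -3.07, and -2.17 without heifer 637. Both heifers were below the other 7 in 9 of the 14. The summed level was 923 and 871 CPM, against a lowest value of 1360 and a median of 2440 in the other 7, a highest value of 18200 in 637, and 3140 to 7150 in the AI heifers. *S100A12*, a calcium-binding protein of the neutrophil cytosol, had 229 and 288 CPM against 484, 702 and 6310 (FDR = 0.149). With 637 left out, 6 of the 14 fell. On D55 the median of the list was -1.1, with 1 chemokine receptor of neutrophils, *CXCR2*, at 7.34 and 4.04 CPM against 3.43 to 83.6. Of 9 neutrophil granule genes, made mostly by immature cells, none was called (1 fell without 637). *LCN2* was at 57.6 and 77.7 CPM against 19.8 to 54.6, the opposite side from *CHI3L1* (7.74 and 8.91 against 13.1 to 219).

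Eosinophil and basophil markers were mixed or low. None of 8 eosinophil and 5 basophil or mast cell genes was called, with medians of -1.18 and -2.41. The eosinophil growth factor receptor *IL5RA* had 24 and 24.6 CPM against 3.18 to 22.7, while *ADGRE3* had 13.7 and 9.24 against 7.67 to 200. The AI heifers reached 31.4 CPM of *IL5RA*, above both heifers. *FCER1A*, the alpha chain of the IgE receptor, had 2.62 and 1.69 CPM against 2.85 to 10.4.

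Dendritic cell genes split into a group that fell and a group that did not. *CD1E*, *FLT3* and *BATF3* fell, the last 2 being a growth factor receptor and a transcription factor that classical dendritic cells need. *FLT3* had 2.15 and 0.984 CPM against 3.23, 5.15 and 5.93 (log2 fold change -1.67 ± 0.38, FDR = 0.0313), and *BATF3* had 4.01 and 3.06 against 5.69, 9.2 and 15.7 (-1.45 ± 0.37, FDR = 0.0419). The median of the 11 genes tested was -1.45. The summed level nevertheless went the other way, 458 and 489 CPM against 305 to 433, since *TCF4* (298 and 346 CPM against 125 to 233) holds most of it. *TCF4* and *IRF8* are transcription factors of plasmacytoid dendritic cells that B cells also express. Both were picked after their values were seen, and neither was called (FDR = 0.0533 and 0.13).

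T cell genes were lower mainly in 664. Of 24 tested, *CAMK4* fell (7 genes fell without heifer 637), none rose and 8 had both heifers below the other 7. Taken singly, 604 lay below the other 7 in 8 genes and 664 in 21, and the median log2 fold change was -0.65, at -0.33 for 604 alone and -0.9 for 664 alone. The summed level was 4240 CPM in 604, inside the 3560 to 6100 of the other 7, and 2920 in 664, below them. On D55 664 was also below the other 7, with 2960 against 3700 to 5110, whereas 604 had 5210. *CD3D*, a chain of the T cell receptor complex, had 85.8 and 77.7 CPM against 113, 164 and 255 (-1.07 ± 0.31, FDR = 0.0581). *CD3E*, another chain of the complex, had 550 and 320 CPM against 368, 598 and 769 (FDR = 0.395). *CAMK4*, a calcium-dependent kinase of T cells, had 20.6 and 16.7 CPM against 28.8, 34.7 and 45.4 (-0.97 ± 0.18, FDR = 0.0223). *FOXP3*, the factor of regulatory T cells and outside the lists, had 5.82 and 3.66 CPM against 8.76 to 12.8 and fell by 1.15 on the log2 scale (FDR = 0.029), and was chosen after its values were seen. Its lowest AI value was 4.85, below 604. None of the 8 genes of the WC1 gamma-delta T cells, a large class in cattle, was called, and 1 had both heifers below the other 7. The median of these 8 was -0.96. *WC1.3*, a scavenger receptor of these cells, had 125 CPM in 604 and 12.3 in 664, against 41.4 to 262, and 664 was also below the others on D55 (19 against 27.9 to 193).

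Natural killer and cytotoxic genes were lower in 664 only, judged by their median. The median deviation was 0.06 in 604, inside the -0.58 to 0.45 of the other IVP-LOS heifers, and -0.69 in 664. Taken singly, 604 lay below those heifers in 3 genes and 664 in 11, and above them in 2 and 1. The summed level was inside their range in both, at 1510 and 1110 CPM against 1090 to 1960. Only 1 gene was called each way, where 5.64% of all tested genes were called higher and 3.41% lower. Of 23, *TBX21* (T-bet, the factor of type 1 immunity) rose, at 461 and 449 CPM against 155, 261 and 294 (log2 fold change 0.90 ± 0.21, FDR = 0.0342). *GZMA*, a granule protease, fell, at 10.2 and 5.25 CPM against 13.1, 27.9 and 31.8 (-1.69 ± 0.41, FDR = 0.0382). Its lowest AI value was 9.34, below 604. The median of the list was -0.5, and it was -0.05 for 604 alone and -0.89 for 664 alone.

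**Figure D3:**
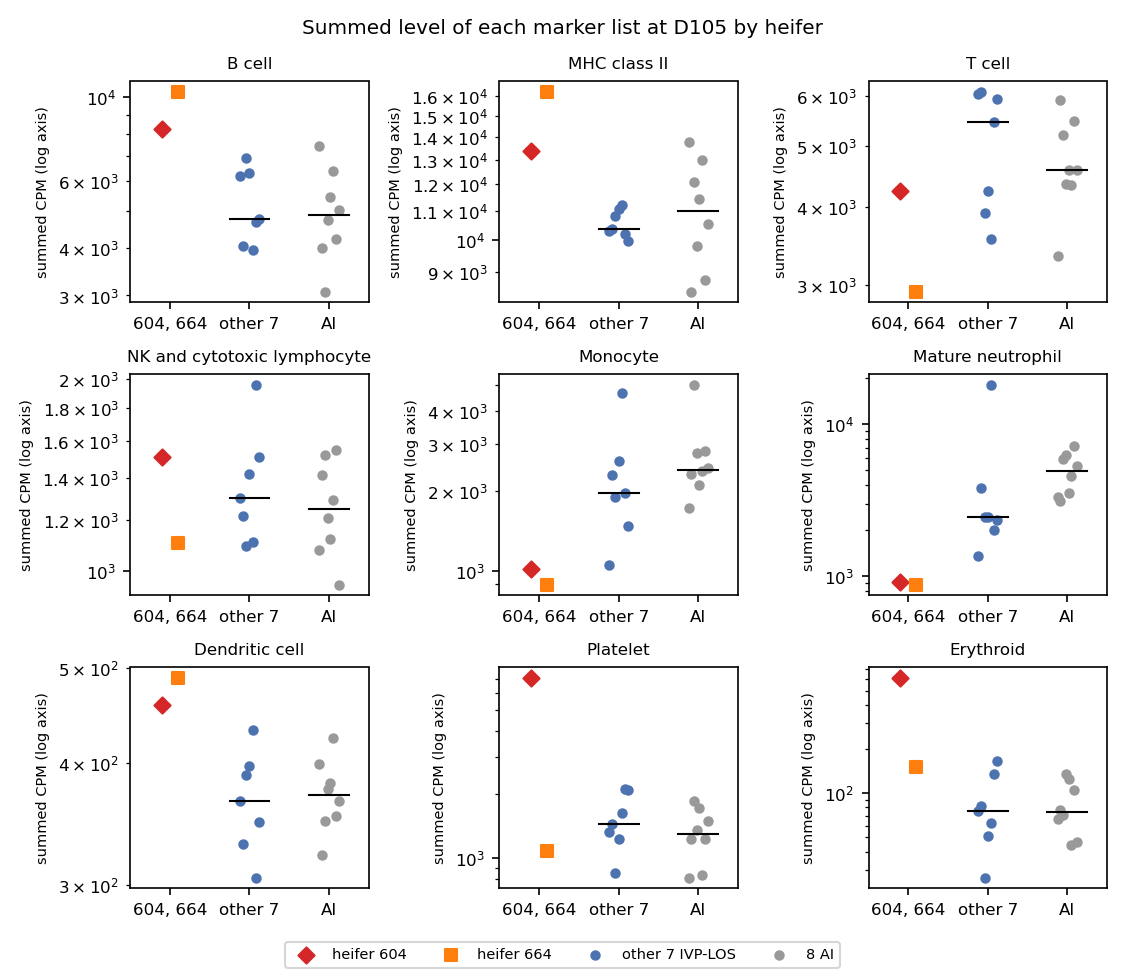
Summed CPM of 9 marker lists on D105 (log axis, its range set for each panel), with 604 and 664 as coloured symbols, the other 7 IVP-LOS heifers in blue, the 8 AI heifers in grey and a black line at each median. Both heifers are above the other 7 for B cell and MHC class II lists and below them for monocyte and mature neutrophil lists, and the platelet list is high in 604 only.

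Platelet genes separated the 2 heifers from each other. Their summed level was 7110 CPM in 604 and 1090 in 664, against 855 to 2130 in the other 7 and 803 to 1870 in the AI heifers. In 604, 13 of the 14 tested genes lay above the other 7, and in 664 only 1 did (*CLEC1B*, named after its values were seen). *TUBB1*, the platelet tubulin, had 3310 CPM in 604 and 463 in 664 against 201, 291 and 873, and *PF4*, a platelet chemokine, had 2270 and 222 against 65.9, 142 and 521. The median log2 fold change of 1.97 became -0.3 without 604, and none of the 14 was called. Red cell genes were mixed. The summed level of 604 was 615 CPM against 26.2 to 165 in the other 7, most of it *HBB*. The median deviation of the list in 604 was 0.15, inside the other 7 (-0.13 to 0.2). In 604, 3 of the 8 tested genes lay above the other 7 and 2 below. *CA2* and *SPTB* had both heifers below (log2 fold changes -1.88 and -1.24). *HBB*, the beta globin, had 571 CPM in 604 and 134 in 664 against 9.16, 56.1 and 132 (FDR = 0.061), and none of the 8 erythroid genes was called (median 0.62). The part of platelets and red cells in the other results was not tested.

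The 3 called genes with the largest increases seen in only 1 of the 2 heifers were, in 604, LOC112449065, *ACTA2* (smooth muscle actin) and *CPXM2*. *CPXM2* had 12.5 CPM in 604 and 0.875 in 664, against 0.425 to 1.67, and its sign turned without 604 (log2 fold change -0.34). In 664 they were *LGR5*, *SSTR1_1* and *RAB34*. *LGR5*, a receptor of R-spondins, had 14.5 CPM in 664 and 2.04 in 604, against 0.0448 to 2.06, and *RAB34* had 6.01 and 0.523 against 0.129 to 0.723. In 664 both were similarly high on D55, at 12.6 and 4.98 CPM. A called gene is therefore not always a gene raised in both heifers.

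Genes of cell division were lower in both heifers on D105. Of 28 cell cycle genes, 12 fell, none rose and 19 had both heifers below the other 7, with a median log2 fold change of -0.9 and a summed level of 694 and 769 CPM against 821 to 1300. The AI heifers ranged from 790 to 1260. *MKI67* (Ki-67, a protein of cycling cells) had 52.5 and 49.5 CPM against 105, 162 and 285 (-1.80 ± 0.34, FDR = 0.0236). *CENPF*, a kinetochore protein, had 16.8 and 14.2 CPM against 29.4, 37.4 and 43.6 (-1.31 ± 0.19, FDR = 0.0173). *CCNB1*, the cyclin that starts mitosis, had 1.34 and 1.91 CPM against 4.85, 5.85 and 11.4 (-2.11 ± 0.45, FDR = 0.0282). The checkpoint kinase *BUB1* had 14.5 CPM in each of the 2, against 26.3, 28.1 and 44.7 (-1.15 ± 0.22, FDR = 0.0238). The 2 values of each gene lay close together and below every IVP-LOS and AI heifer.

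These genes were not low on D55. *MKI67* had 181 CPM in 604 and 228 in 664 on D55, inside the 86.2 to 288 of the other 7, and the median log2 fold change of the list was 0.25. The change from D55 to D105 was compared between the 2 heifers and the other 7 with heifer as a block (edgeR's quasi-likelihood test, 18 libraries, 16698 genes tested). Of all genes 716 (4.29%) moved further up in the 2 heifers and 356 (2.13%) moved further down. Of the 28 cell cycle genes, 17 moved further down and none further up. For *MKI67* the difference between the changes was -1.93 (FDR = 0.0144), for *CENPF* -1.48 (FDR = 0.0144) and for *CCNB1* -2.56 (FDR = 0.0195). This comparison rests on few heifers, with 0 genes called when 604 was left out (1989 at an unadjusted p under 0.05), 6 without 664, 17 without 616, 100 without 602, 233 without 512, 414 without 663, 517 without 656 and 3043 without 557. It called 22 genes with no block.

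**Figure D4:**
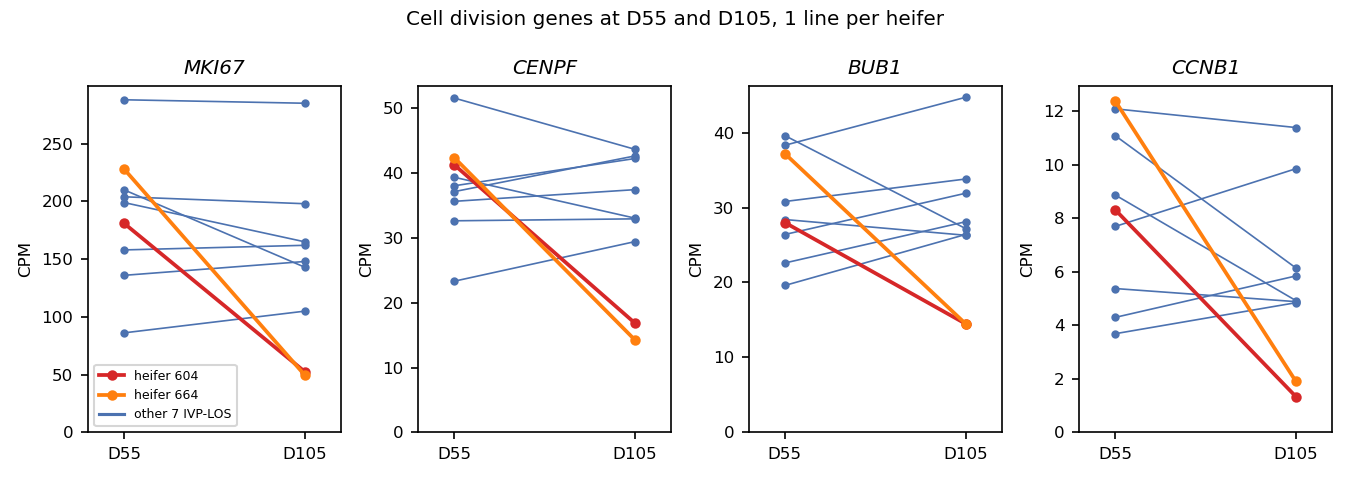
CPM of *MKI67*, *CENPF*, *BUB1* and *CCNB1* on D55 and D105, with 1 line per IVP-LOS heifer and the axis starting at 0. On D55 the lines of 604 and 664 run among or just above the other 7, and on D105 both are the lowest of the 9.

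On D55 no gene was called between the 2 heifers and the other 7 with edgeR's quasi-likelihood test (0%, 16142 genes tested), with 896 at an unadjusted p under 0.05. The edgeR likelihood ratio test called 11 and DESeq2 called 23. Of the 1466 genes called on D105, 636 also had a called difference in their change from D55 in the same direction. Over all 16698 genes tested for the change, it was called in 1072. Both tests use the same D105 libraries, so part of this overlap is built in. The D55 and D105 libraries of these heifers come from different library sets, so the day and the set cannot be told apart.

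The machinery of protein synthesis was higher in both heifers. Of 77 cytosolic ribosomal proteins, 30 rose, none fell and 55 had both heifers above the other 7, with a median log2 fold change of 0.54. Their summed level was 97600 CPM in 604 and 114000 in 664 against 58000 to 85800, the highest of the 7 being 557, and 62900 to 79600 in the AI heifers. *RPL13* had 2160 and 2420 CPM against 888, 1120 and 1510 (log2 fold change 0.94 ± 0.16, FDR = 0.0207). *RPS26* had 1610 and 1950 CPM against 772, 925 and 1130 (0.83 ± 0.15, FDR = 0.0218). Reads of ribosomal protein genes may be shared with their many processed copies. Of 38 translation factors, 4 rose and none fell, with a median of 0.23. *EIF5B*, which joins the ribosomal subunits, had 298 and 387 CPM against 120, 154 and 241 (1.05 ± 0.21, FDR = 0.026).

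Nuclear genes of mitochondria moved the same way. Of 77 mitochondrial ribosomal proteins, 14 rose, none fell and 39 had both heifers above the other 7 (median 0.35). Of 77 nuclear-encoded subunits of the respiratory chain, 25 rose, none fell and 43 lay above (median 0.38). *MRPL23* had 54.1 and 46.1 CPM against 19.9, 23.3 and 28 (1.02 ± 0.14, FDR = 0.0159), and *MRPL41* had 76.8 and 82.3 against 27.9, 31.6 and 48.3 (1.13 ± 0.20, FDR = 0.0207). *NDUFS7*, of complex I, had 65.3 and 73.1 CPM against 37, 39.4 and 49.9 (0.69 ± 0.13, FDR = 0.023). *ATP5MG*, of the ATP synthase, had 235 and 205 CPM against 122, 136 and 164 (0.63 ± 0.12, FDR = 0.0241). None of the 20 glycolysis genes was called (median -0.37). Without 637 their median was -0.2, and 1 rose and 1 fell. *GAPDH* had 691 and 801 CPM against 675 to 1480. Of 34 proteasome subunits 4 rose and none fell, with a median of 0.08. *PSMA4* had 91.1 and 89.8 CPM against 48.4, 57.3 and 63.8 (0.64 ± 0.11, FDR = 0.0208).

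Genes of the spliceosome core and SR protein genes rose in part. Of 40 core components 11 rose, none fell and 22 had both heifers above the other 7 (median 0.31). *SNRPD3*, a subunit of the ring that binds small nuclear RNA, had 101 and 100 CPM against 47, 51.6 and 70 (0.84 ± 0.15, FDR = 0.0207). *SNRNP70*, of the U1 particle, had 358 and 342 CPM against 148, 195 and 243 (0.80 ± 0.15, FDR = 0.0236). Of 52 SR protein and nuclear speckle genes 14 rose, none fell and 26 lay above (median 0.18). *LUC7L3* had 834 and 797 CPM against 195, 272 and 423 (1.48 ± 0.23, FDR = 0.0207), and *RBM25* had 656 and 781 against 289, 332 and 433 (0.98 ± 0.15, FDR = 0.0207). *DDX46*, a helicase of early spliceosome assembly, had 371 and 456 CPM against 161, 199 and 236 (1.01 ± 0.14, FDR = 0.0166).

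Some structural RNAs without a poly(A) tail were also higher on D105. By RefSeq gene type, assigned by symbol for 14573 of the 16200 genes and grouped after the values were seen, 24 of 199 small nucleolar RNAs rose and 1 fell (median log2 fold change 0.23), and 8 of 51 small nuclear RNAs rose and 2 fell (median 1.38). *RN18S1*, an 18S ribosomal RNA, had 1820 and 2260 CPM against 412 to 1230 (1.51 ± 0.33, FDR = 0.0292). *RN7SL1*, the RNA of the signal recognition particle, had 41.8 and 22.2 CPM against 2.53, 6.19 and 13.9 (2.00 ± 0.52, FDR = 0.0447). Of 59 microRNAs 3 rose and 1 fell (median -0.17). One of the 3, *MIR2887-1*, had the largest increase of all named genes of at least 5 CPM, at 741 and 299 CPM against 2.62, 49.5 and 97.8 (3.59 ± 0.92, FDR = 0.0433). On D55 neither *RN18S1* nor *RN7SL1* was above the other 7, with *RN18S1* at 527 and 722 CPM against 343 to 785 and *RN7SL1* at 1.9 and 1.66 against 1.9 to 9.4. In the other direction, 4 of 64 variable segments of antigen receptors fell and none rose (median -1.24). These RNAs, the reads on no NCBI gene and the lower number of genes with a read (19326 and 19300, against 19731 to 20162) moved with the ribosomal, mitochondrial and splicing lists, and their part in those results was not tested.

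**Figure D5:**
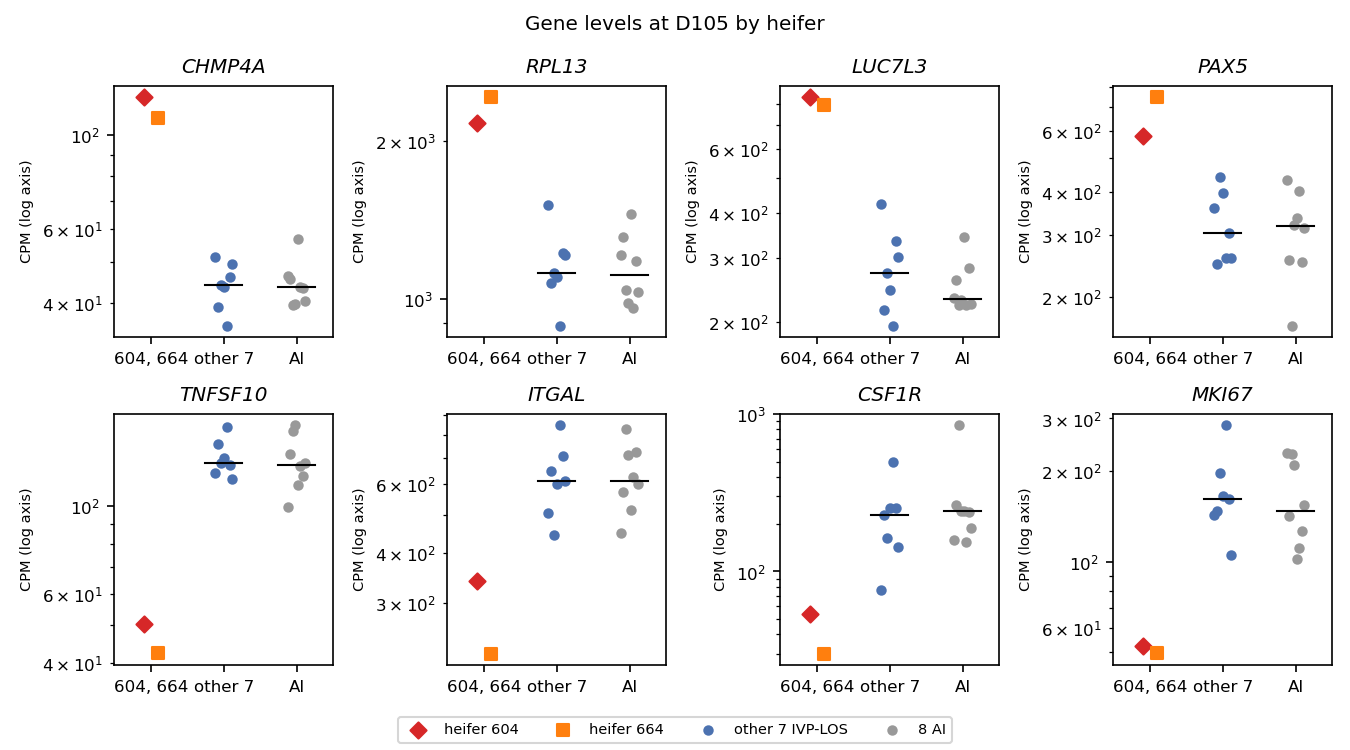
CPM of 8 genes on D105 (log axis, its range set for each panel), with 604 and 664 as coloured symbols, the other 7 IVP-LOS heifers in blue, the 8 AI heifers in grey and a black line at each median. In each gene of the upper row both heifers lie above, and in each gene of the lower row below, every other heifer shown.

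Adhesion receptors, through which leukocytes leave the blood, were lower. Of 16, 4 fell, none rose and 7 had both heifers below the other 7 (median -0.79). Without 637 the median was -0.64 and 6 fell. *ITGAL*, the alpha chain of LFA-1, had 340 and 223 CPM against 446, 609 and 846 (-1.19 ± 0.26, FDR = 0.0298). *ITGA4*, of VLA-4, had 72.7 and 68.5 CPM against 148, 214 and 346 (-1.79 ± 0.33, FDR = 0.023), and its partner *ITGB1* had 218 and 243 against 304, 407 and 454 (-0.82 ± 0.17, FDR = 0.0285). *SPN* (CD43, a surface sialoglycoprotein) had 187 and 130 CPM against 231, 345 and 438 (-1.11 ± 0.25, FDR = 0.0303). *GPR15*, a homing receptor of lymphocytes, was at 6.28 and 8.58 CPM against 22 to 31.1 (-1.86 ± 0.21, FDR = 0.0132) and was chosen after its values were seen.

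Of 26 genes of pattern recognition and the inflammasome, 2 fell and 10 had both heifers below the other 7 (median -0.66). Without 637 the median was -0.38 and 6 fell. *NLRP1* had 12.5 and 9.35 CPM against 20.4, 49.7 and 87.6 (-2.36 ± 0.51, FDR = 0.0288), and *NLRP3*, a sensor that triggers release of interleukin-1, had 5.18 and 4.59 against 11.9, 22.5 and 80.9 (-2.68 ± 0.72, FDR = 0.0479). None of 26 cytokine and NF-kappaB genes was called (median -0.9), but 4 fell without 637 (median -0.49). None of 35 interferon-stimulated genes was called either (1 fell without 637). Their median was -1, but the heifers differed, at -0.68 for 604 alone and -1.16 for 664 alone, and *MX1*, an antiviral GTPase used as a marker of early pregnancy in cattle, had 361 and 469 CPM inside the 196 to 781 of the other 7. Monocytes and neutrophils express many genes of these lists, and their markers were lower in both heifers. Their part in these results was not tested.

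Immediate early genes, which respond within minutes to stimulation and to handling of cells, did not move as a group. Of 25, *IER2* rose and *FOS*, *FOSL2* and *DUSP2* fell (median -0.37, and -0.16 without 637). *FOS* had 37.7 and 60.4 CPM against 107, 368 and 419 (log2 fold change -2.72 ± 0.50, FDR = 0.0223). On D55 *FOS* was also low, at 32.7 and 22.9 CPM against 64.9 to 392, and its change between the days did not differ (FDR = 0.894). Of 27 heat shock genes 2 rose (median 0.27, and 0.02 without 604). Their summed level was 8130 CPM in 604, while 664 with 5010 lay inside the 3980 to 5860 of the other 7. *HSP90AB1*, a constitutive chaperone, had 1610 and 1000 CPM against 602, 735 and 922 (0.80 ± 0.20, FDR = 0.0401), a log2 fold change that was 0.43 without 604. In the unfolded protein response *ATF4*, a factor of the integrated stress response, rose (879 and 576 CPM against 325, 402 and 502, 0.78 ± 0.20, FDR = 0.0431), whereas the sensor *ERN1* fell (21.6 and 17.9 against 35.7, 47.8 and 84.8, -1.44 ± 0.33, FDR = 0.0333), and 10 of the 20 genes had both heifers below (median -0.51, with 6 genes that fell without 637). Among 14 glucocorticoid-responsive genes only *SGK1*, a kinase, fell (36.6 and 33.5 CPM against 46.1, 121 and 218, list median -0.33). *TSC22D3* (GILZ), a glucocorticoid-induced regulator, had 1390 and 679 CPM against 622 to 1140. None of the 13 hormone receptors was called (median -0.61), with the glucocorticoid receptor *NR3C1* at 87.8 and 95 CPM against 98 to 134 (FDR = 0.104).

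Chromatin genes moved in both directions, and their list medians were slightly below that of all genes (-0.03). For DNA methylation the deviations of both heifers (-0.12 and -0.1) lay just below the lowest of the other 7 (-0.08). Of 43 histone methylation enzymes 1 rose and 6 fell (median -0.13). The histone H3 lysine demethylase *KDM5A* rose, at 157 and 187 CPM against 86.1, 91.5 and 116 (0.82 ± 0.13, FDR = 0.0207). *KDM7A*, also a demethylase, fell, at 42.2 and 37.4 CPM against 68.2, 101 and 167 (-1.46 ± 0.30, FDR = 0.0275), and the methyltransferase *NSD3* had 94.1 and 95.5 against 134, 161 and 195 (-0.83 ± 0.17, FDR = 0.0265). Of 35 chromatin remodellers and coactivators 7 rose and 1 fell (median -0.08). *CHD7* had 310 and 436 CPM against 131, 149 and 178 (1.26 ± 0.14, FDR = 0.0132), *ATRX* had 440 and 506 against 181, 213 and 284 (1.1 ± 0.15, FDR = 0.016), and *NCOA3*, a coactivator of nuclear receptors, had 110 and 123 against 165, 194 and 249 (-0.82 ± 0.16, FDR = 0.0243). Of 17 DNA methylation genes *UHRF2* rose and *TET1* fell (median -0.18). *TET1*, which oxidizes methylcytosine, had 5.18 and 5.36 CPM against 7.93, 11.5 and 18.3 (-1.25 ± 0.33, FDR = 0.047). None of 15 imprinted genes was called (median 0.18). *GNAS*, a G protein subunit, had 1660 CPM in 604 and 849 in 664, against 623 to 886.

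No call was made among 32 actin cytoskeleton genes (median -0.07), with *ACTB* at 6540 and 6970 CPM against 4730 to 7100. Without 637, 2 of the 32 rose and 2 fell. Of 29 lysosome genes *LIPA*, the acid lipase, fell (14 and 12.4 CPM against 35.7, 58.1 and 120, -2.50 ± 0.53, FDR = 0.0285), and the median was -0.45. Without 637, 3 of the 29 fell.

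Among named genes of at least 5 CPM outside the range in both heifers, the largest increases after *MIR2887-1* were those of *SYT8*, *B3GAT1* and *MYO18B*. *SYT8*, a synaptotagmin, had 62.8 CPM in 604 and 206 in 664 against 5.93, 11.2 and 29.1 (log2 fold change 3.2 ± 0.50, FDR = 0.0207), and 664 had 128 on D55. The AI heifers reached 63.4 CPM of *SYT8*, above 604. *B3GAT1*, which makes the CD57 carbohydrate of cytotoxic lymphocytes, had 80.7 and 35.3 CPM against 3.96, 12.9 and 17.2 (2.22 ± 0.41, FDR = 0.023). *C1QTNF12*, a secreted protein, had 29.3 and 47.9 CPM against 4.85, 8.85 and 12.7 (2.01 ± 0.31, FDR = 0.0207), *RBPMS2* had 24.3 and 6.18 against 1.63 to 5.53, and *DNAAF4* 34.5 and 17.5 against 3.32 to 10.1. The largest decreases were those of *SLC16A12*, *STEAP4*, *LGR6*, *XDH*, *CLEC4D*, *GPT2*, *CD101* and *ADAMTS2*, with log2 fold changes from -4.43 to -3.11. *XDH*, the xanthine dehydrogenase, was the most abundant of them, at 95.5 and 37.3 CPM against 221, 622 and 1670 (-3.41 ± 0.78, FDR = 0.0328). On D55 both heifers were already below the other 7 in *XDH*, at 284 and 150 CPM against 400 to 1440, though it was not called. Its change from D55 to D105 also differed (FDR = 0.0293). *STEAP4*, a metalloreductase of inflamed tissue, had 4.83 and 5.25 CPM against 7.26, 95.9 and 174 (-4.13 ± 1.13, FDR = 0.0497). *CD101*, an inhibitory receptor of myeloid cells, had 7.27 and 3.77 CPM against 10.8, 47.5 and 63.1 (-3.15 ± 0.65, FDR = 0.0274), and *CLEC4D*, a lectin of the same cells, had 2.21 and 2.57 against 6.55, 20.1 and 65.5 (-3.37 ± 0.91, FDR = 0.0482).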

How the data were processed

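The files hold raw counts of reads for each gene, deposited without normalization, which the authors made by aligning trimmed reads with HISAT2 2.1.0 to ARS-UCD1.2 and counting them with HTSeq, once on NCBI genes (30675, used unless stated) and once on Ensembl genes. The 5 summary lines were left out of totals and tests and used only for the share on no gene, 24.76 to 38% in the 9 libraries compared. No column of another sample was present (0). Counts were analysed in R 4.3.3 with edgeR 4.0.16 (TMM, filterByExpr with a minimum count of 10, quasi-likelihood F-test, Benjamini-Hochberg FDR of at most 0.05), with DESeq2 1.42.0 as an alternative. The standard error is the absolute log2 fold change divided by the square root of F. Printed CPM were scaled over all 46 libraries. Only the 9 IVP-LOS heifers entered the D105 and D55 fits, and D55 against D105 used the heifer as a block. The numbers are animals, and the deviations of the 2 days from group and day means correlated for each of the 9 (r 0.378 to 0.642). With 2 heifers in their group, the deviations of 604 and 664 mirror each other, so their r (0.638) is 1 value, not 2. On simulated counts for 2 against 7 heifers (200 of 15975 genes changed) the quasi-likelihood test called 24% of the 2-fold and 71% of the 4-fold changes, with 2 false calls, so a gene not called is not shown to be unchanged. No 2 of the 9 IVP-LOS libraries of D105 were duplicates (smallest rms log2 difference 0.37 against a counting noise of 0.0945). The other libraries were not compared in this way.

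The members and the 42 lists were chosen with earlier results of these data known. Named genes are, per list, up to 4 called genes in which neither heifer overlaps with the other 7, otherwise its most abundant genes and first markers, and over all genes the 3 smallest FDRs, the 8 largest changes each way (mean of at least 5 CPM, symbol not a LOC number) and the 3 largest seen in 1 heifer only. Not all of them are printed, and some items are not reported here. Gene types came from the RefSeq table of ARS-UCD2.0, a later build than that of the counts, and no position is printed.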

Additional observations from a re-analysis of the deposited data

Results flagged for a closer look

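Among the other 7 IVP-LOS heifers on D105, 1 library lay far from the rest by Dixon's test in 10 of the 43 levels examined (3 library measures and 40 summed lists), and each time it was the highest, heifer 637. Chance passes about 1 in 20 groups, and the lists share cells and genes. In CPM its summed levels were 18200 for mature neutrophils (next highest 3820), 4660 for monocytes (2590), 358 for neutrophil granules (154), 4290 for pattern recognition (2140), 3090 for cytokines and NF-kappaB (1560), 9130 for adhesion (6180), 7510 for immediate early genes (5000), 4210 for the unfolded protein response (3150), 9870 for glycolysis (4950) and 36900 for the actin cytoskeleton (29500). Without 637 the number of called genes was 1965, and 1423 of the 1466 were called again.

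The change from D55 to D105 differed between the 2 heifers and the other 7 in 1072 genes of 16698 (edgeR's quasi-likelihood test with heifer as a block).

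In the Ensembl table, the 12 identifiers that rose most held 19.4% of the reads in the mean of 604 and 664, above the highest AI heifer of D105 (10.9%). They belong to no comparison of named genes, and what the reads come from was not tested.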

How the results depend on the processing

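The number of genes called on D105 was 1466, and it was 2239 with the edgeR likelihood ratio test, 3420 with DESeq2, 3630 with the 17 BACKUP libraries in the fit and 3475 with all 23 heifers. The 17 are the IVP-LOS and AI heifers. The 23 add the IVP-Normal group, whose IVP fetuses were not overgrown and whose D105 libraries are of set New. The number called was 0 with the share of reads on no gene as a covariate. The 2 heifers have the 2 highest shares, so the share and the group cannot be told apart. With 1 heifer left out it ran from 30 to 2318. Every fit without 604 or without 664 assumes that the lone heifer varies like the other 7. On D55, 0 calls became 11 with the likelihood ratio test and 23 with DESeq2, and 0 to 6 with 1 heifer left out. The change between days (1072 with the replicate block) gave 22 with no replicate block, 2208 with the likelihood ratio test and 0 to 3043 with 1 heifer left out. The difference in the share on no gene (9.65 percentage points) was -5.4 on Ensembl genes and 8.69 to 10.6 with 1 heifer left out, where leaving out 604 or 664 cannot give an exact p under 0.125.

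With the covariate, these list medians changed sign: monocyte 1.03, mature neutrophil 3.05, neutrophil granule 2.31, eosinophil 2.35, basophil and mast cell 0.22, platelet -2.2, interferon-stimulated 0.47, MHC class I 0.27, pattern recognition 0.83, cytokine 0.78, adhesion 0.62, immediate early 0.6, unfolded protein response 0.26, hormone receptor 0.06, glycolysis 1.01, lysosome 0.79, SR protein -0.15, histone methylation 0.11, DNA methylation 0.08 and imprinted -0.1. So did the log2 fold changes of *KLF4* (1.09), *BOLA-DOB* (-0.32), *NLRP1* (0.04), *NLRP3* (0.7), *DUSP2* (0.13), *FOSL2* (0.43), *ATF4* (-0.01), *SGK1* (0.72), *RPL18* (0), *EIF3K* (-0.03), *LIPA* (0.56), *LUC7L3* (-0.05), *SNRNP70* (-0.04), *KDM7A* (0), *RBPMS2* (-0.76), *RN7SL1* (-1.44), *DNAAF4* (-0.5), *SLC16A12* (0.18), *STEAP4* (2.23), *CLEC4D* (0.5), *ADAMTS2* (0.46) and LOC112449065 (-3.05), none of them called there. Without 604 the sign turned for the platelet list (-0.3 to 2.7 with 1 heifer left out), the erythroid list (-0.25 to 0.74), the imprinted list (-0.32 to 0.27), *ACTA2* (-0.09 to 3.59) and *CPXM2* (-0.34 to 3.51), without 664 for MHC class I (-0.16 to 0.01), and the erythroid median was 0 with no filter on low counts. Of the 40 list medians, 20 changed sign with the covariate, 15 moved by more than the spread between heifers and 5 did neither. The B cell (0.5) and MHC class II (0.63) medians were among the 5, while those of the cytosolic ribosomal (0.02), core spliceosome (0.08), respiratory chain (0.21) and cell cycle (-0.4) lists kept their sign and shrank. The cause of these differences was not tested.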
